A study of Mus musculus with 16 samples.

Results

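The genes described here encode the subunits of the proteasome, the factors that assemble it and the proteins that activate or inhibit it. They were chosen by name, as protein-coding genes whose symbol starts with Psm, a letter from a to g and a digit in GENCODE M21, which gave 50 of the 35968 genes in the tables. Of these 50 genes, 48 passed the filter on low counts and were tested; the immunoproteasome subunit Psmb8 and the PA28 gene Psme2b did not. Psmc3ip, named for its binding to Psmc3, is a factor of meiotic recombination and no proteasome gene, and it is counted among the 50 only because its symbol meets the rule. The values come from poly(A)-selected RNA of mouse embryonic stem cells (ESCs), pluripotent cells of the blastocyst, in 4 groups of 4 libraries. Paused KO cells had the genotype DGCR8 KO in the labels (spelled DGRC8 KO in the sample titles) and were grown under mTOR inhibition (mTOR is a kinase that promotes growth when nutrients are present). Normal KO cells carried the same genotype in normal ESC culture. Paused WT and normal WT cells were the wild-type counterparts under the same conditions, and the labels give day 2 and 800000 cells for a sample. Dgcr8 binds RNA for the nuclease Drosha, a step most microRNAs need. Blocking mTOR puts ESCs into a paused state like that of embryos in diapause. Strain, sex, number of KO clones, name of the inhibitor and whether the 4 libraries of a group came from separate cultures are not given in the labels. The p-values therefore measure the spread between libraries, which may be technical.

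The proteasome degrades proteins that carry ubiquitin chains. Its 20S core is a barrel of alpha rings, which gate the entry, around beta rings, of which the subunits Psmb6, Psmb7 and Psmb5 cut with caspase-like, trypsin-like and chymotrypsin-like specificity. The 19S cap binds, deubiquitinates and unfolds the substrate. Immune signals such as interferon gamma exchange the catalytic subunits for Psmb9, Psmb10 and Psmb8, which makes the immunoproteasome. High proteasome activity has been described in human embryonic stem cells, and subunit genes are known to be controlled together, through the transcription factor NRF1 (Nfe2l1) when the proteasome is impaired.

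The libraries held 88377380 to 116646028 estimated counts, and the TMM factors that scale them ran from 0.933 to 1.07. The targeted gene Dgcr8 had 173 to 187 CPM (counts scaled by library size and TMM) in paused KO and 246 to 256 CPM in normal KO libraries, 50.8 to 56.2 CPM in paused WT and 45.3 to 49.2 CPM in normal WT libraries. Its level was higher in the KO libraries, and since the deleted part is not stated, this checks nothing about the genotype. All 10 ESC markers were expressed, with a summed level of 6061 to 7168 CPM over the 16 libraries. Replicates 1 and 2 of normal WT cells stood apart from replicates 3 and 4, with median chi-square values per gene between 2.07 and 2.45 within and between 9.30 and 13.2 across these pairs. Values from each pair alone are given beside the counts. All levels are shares of the RNA sequenced, so fewer cells of a kind and less RNA per cell cannot be told apart.

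The 250 bases before the transcription start were read from RefSeq promoters (GRCm38.p6) for 42 of the 50 genes, which have 45 promoters there. The letters CCGGAAG, the core of binding sites of ETS factors, were found on either strand in 14 of 45 promoters (31.1%), against 6.91% of the 32851 promoters in the table. The 14 promoters belong to 13 genes, since both promoters of Psmc2 are among them. They include that of Psmc3ip, which is no proteasome gene. The GC box GGCGGG was present in 64.4% of these promoters, against 32.5% of all. The antioxidant response element type TGACNNNGC, to which NRF1 and NRF2 can bind, was present in 11.1%, against 10.2% of all promoters. The CCAAT box was at 33.3% and 33.8%, the E-box CACGTG at 8.89% and 6.02%, the STAT site type TTCNNNGAA at 4.44% and 7.02%, and an element of the interferon-stimulated response type at 6.67% and 2.98%, in these and in all promoters. Matches of different motifs overlapped only in the promoter of Psmd9, where a GC box overlapped the antioxidant type. These are matches of letters and not sites shown to be bound. The 6 promoters below belong to subunits of the cap, the core and the immunoproteasome whose mRNA levels are described further on. Capitals mark the ETS core (Psmd2, Psmd12 and Psmc6), the antioxidant type (Psmb5, Psmb6, Psmd12 and Psmc6) or the E-box (Psmb10), on either strand, and GC and CCAAT boxes are left in lower case.
Psmd2, chr16:20651402-20651651, plus strand: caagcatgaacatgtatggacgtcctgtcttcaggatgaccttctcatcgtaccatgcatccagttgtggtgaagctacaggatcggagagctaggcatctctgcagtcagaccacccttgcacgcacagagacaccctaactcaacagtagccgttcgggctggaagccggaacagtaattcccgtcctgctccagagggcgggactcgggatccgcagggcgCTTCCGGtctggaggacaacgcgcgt
Psmd12, chr11:107479278-107479527, plus strand: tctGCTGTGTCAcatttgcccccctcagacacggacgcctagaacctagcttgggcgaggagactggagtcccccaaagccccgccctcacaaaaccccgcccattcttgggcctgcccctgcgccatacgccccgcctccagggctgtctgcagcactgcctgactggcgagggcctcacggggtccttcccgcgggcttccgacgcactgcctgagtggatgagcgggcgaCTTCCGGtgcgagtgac
Psmc6, chr14:45329574-45329823, plus strand: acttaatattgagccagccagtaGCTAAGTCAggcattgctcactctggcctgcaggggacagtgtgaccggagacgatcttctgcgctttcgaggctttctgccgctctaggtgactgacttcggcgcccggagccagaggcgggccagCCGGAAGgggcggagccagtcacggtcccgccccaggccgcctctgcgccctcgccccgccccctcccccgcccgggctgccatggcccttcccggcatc
Psmb5, chr14:54617996-54618245, minus strand: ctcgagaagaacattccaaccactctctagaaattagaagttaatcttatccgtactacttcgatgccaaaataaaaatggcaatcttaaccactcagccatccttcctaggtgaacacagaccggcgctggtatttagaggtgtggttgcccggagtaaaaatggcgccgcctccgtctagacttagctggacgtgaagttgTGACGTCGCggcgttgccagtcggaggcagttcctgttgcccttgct
Psmb6, chr11:70525107-70525356, plus strand: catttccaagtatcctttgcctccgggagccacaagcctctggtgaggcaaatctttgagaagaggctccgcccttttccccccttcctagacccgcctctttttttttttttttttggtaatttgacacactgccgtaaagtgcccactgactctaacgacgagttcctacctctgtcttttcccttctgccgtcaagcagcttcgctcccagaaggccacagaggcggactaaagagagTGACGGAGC
Psmb10, chr8:105938393-105938642, minus strand: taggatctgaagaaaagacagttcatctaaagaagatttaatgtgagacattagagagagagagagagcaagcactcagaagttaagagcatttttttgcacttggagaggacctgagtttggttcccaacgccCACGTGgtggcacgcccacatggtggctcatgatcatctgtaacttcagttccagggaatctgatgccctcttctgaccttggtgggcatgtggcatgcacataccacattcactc
The ETS core began 17 bases before the transcription start in Psmd12, 26 bases before it in Psmd2 and 100 bases before it in Psmc6.

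Levels between genes are compared in TPM, which corrects for transcript length. TPM carry no TMM scaling, so falls on pausing can be smaller in TPM than in the tests below. With library totals in place of TMM, the median log2 fold change on pausing over all genes moved from 0.02 to 0.17 in KO cells. In WT cells it moved from 0.04 to 0.19. The 14 genes of the constitutive 20S core and the 17 genes of the 19S cap had means over the 16 libraries between 112 TPM for the deubiquitinase subunit Psmd14 and 498 TPM for the structural beta subunit Psmb3. Protein-coding transcripts held 47.6% of the TPM of Psma3, 64.8% of that of Psmc6, 65.2% of that of Psmd13 and 85.4% or more of that of the others. Psmb6 had 449 TPM, Psma7 355, Psmb4 334 and Psmb7 313 TPM. Among the activators Psme3 had 144 and Psme4 69.3 TPM, and among the chaperones Psmg1 had 119, Psmg2 72.8, Psmg4 65.8, Psmd5 57.04, Psmg3 29.4, Psmd9 23.6 and Psmd10 9.03 TPM. The testis-type alpha subunit Psma8 had 14.98 TPM, and Psmb9, Psmb11 and Psmb8 had 1.67, 1.16 and 0.134 TPM. Summed over the 20S core the level was 3213 ± 67.3 TPM in paused KO cells, 4379 ± 143 TPM in normal KO cells, 3345 ± 96.6 TPM in paused WT cells and 4129.9 ± 216 TPM in normal WT cells (SD, n = 4). The sum over the 19S cap was 2901 ± 67.1 TPM in paused KO cells, 3799.7 ± 129.7 TPM in normal KO cells, 2955 ± 35.2 TPM in paused WT cells and 3438 ± 139 TPM in normal WT cells. Both sums were lower in paused than in normal libraries of either genotype, without overlap. Immunoproteasome beta subunits summed to 32.2 ± 3.92 TPM in paused KO cells, 95.5 ± 4.15 TPM in normal KO cells, 35.8 ± 1.42 TPM in paused WT cells and 66 ± 2.26 TPM in normal WT cells, most of it Psmb10. The protein-coding transcript held only 4.04% of the TPM of Psmb10. Its values, given further on, overlapped between paused and normal WT libraries, so the sum does not show less coding mRNA in paused WT cells. Activators summed to 314 ± 7.52 TPM in paused KO cells, 417 ± 17 TPM in normal KO cells, 257 ± 9.55 TPM in paused WT cells and 255 ± 10.5 TPM in normal WT cells, so that their sum was higher in each KO group than in the WT groups. This did not hold for each activator. By the test described below, Psme1, Psme2 and Psme4 were higher in KO than in WT cells in both cultures. Psme3 was lower in KO cells in paused and higher in normal culture. The activator sums of paused and normal WT libraries overlapped. By the same test, Psme3 and Psme4 were lower and Psme1 and Psme2 higher in paused than in normal WT cells.

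**Figure D1:**
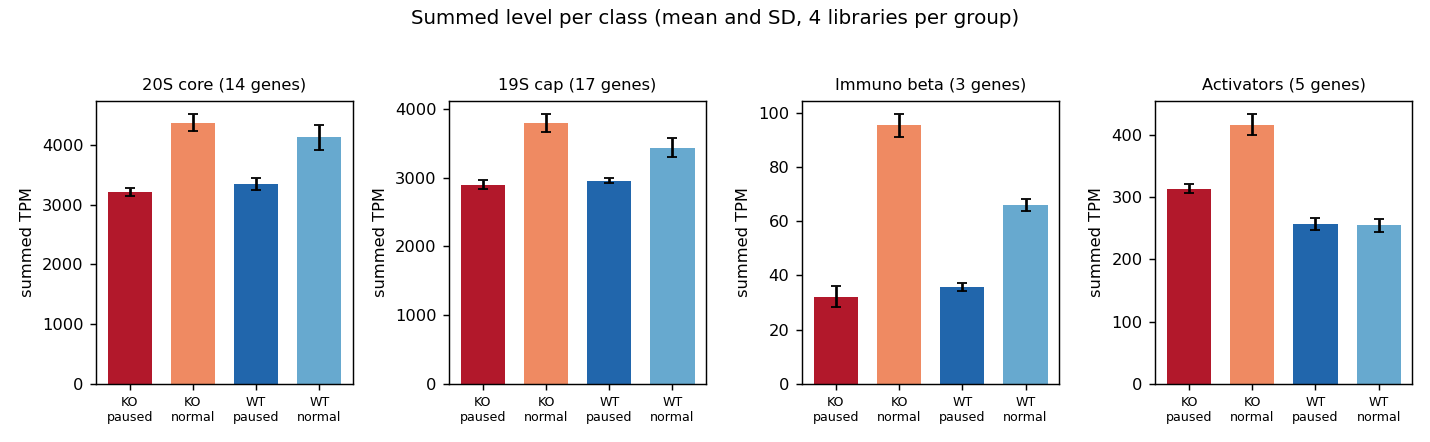
Summed TPM (y axis, linear from 0) of the 20S core, the 19S cap, the immunoproteasome beta subunits and the activators in paused KO, normal KO, paused WT and normal WT cells; bars are means and error bars SD over 4 libraries. The TPM are not scaled by TMM. The 20S core sums to 3213 TPM in paused KO and 4379 TPM in normal KO cells. Of the classes drawn the activators are the one in which both KO bars stand above both WT bars. The immunoproteasome bars are mostly Psmb10, of whose TPM 4.04% is in the protein-coding transcript.

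The first comparison asked how the proteasome genes differed between paused and normal culture. In KO cells 46 of the 48 genes tested were lower in paused culture and 0 were higher by edgeR's quasi-likelihood test (adjusted p under 0.05), where 32.8% of all genes tested were lower and 34.4% higher. The median log2 fold change, paused over normal, was −0.59 over the 48 genes and 0.02 over all genes. In all 46 the 4 paused KO libraries lay below the 4 normal KO libraries, as was the case for 31.3% of all genes. The other two, Psmb11 and Psmg4, did not pass the test, and Psmb11 was called higher when libraries were scaled by their totals and when only replicates 1 and 2 were used (0.38, adjusted p = 0.044 and 0.41, adjusted p = 0.020). In WT cells 41 of 48 were lower and 4 higher, where 27.5% of all genes tested were lower and 33.3% higher. The median was −0.48, against 0.04 over all genes, and 40 genes were lower without overlap, as were 24.2% of all genes. The 4 genes called higher in WT cells were Psma8, Psme1, Psme2 and Psmf1, and each of them was lower in paused KO cells. With replicates 1 and 2 alone 46 genes were lower in paused KO cells and 40 in paused WT cells, and with replicates 3 and 4 alone 45 and 42 were. Scaling by library totals moved the median of all genes to 0.17 in KO and 0.19 in WT cells and left 42 and 39 genes lower.

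**Figure D2:**
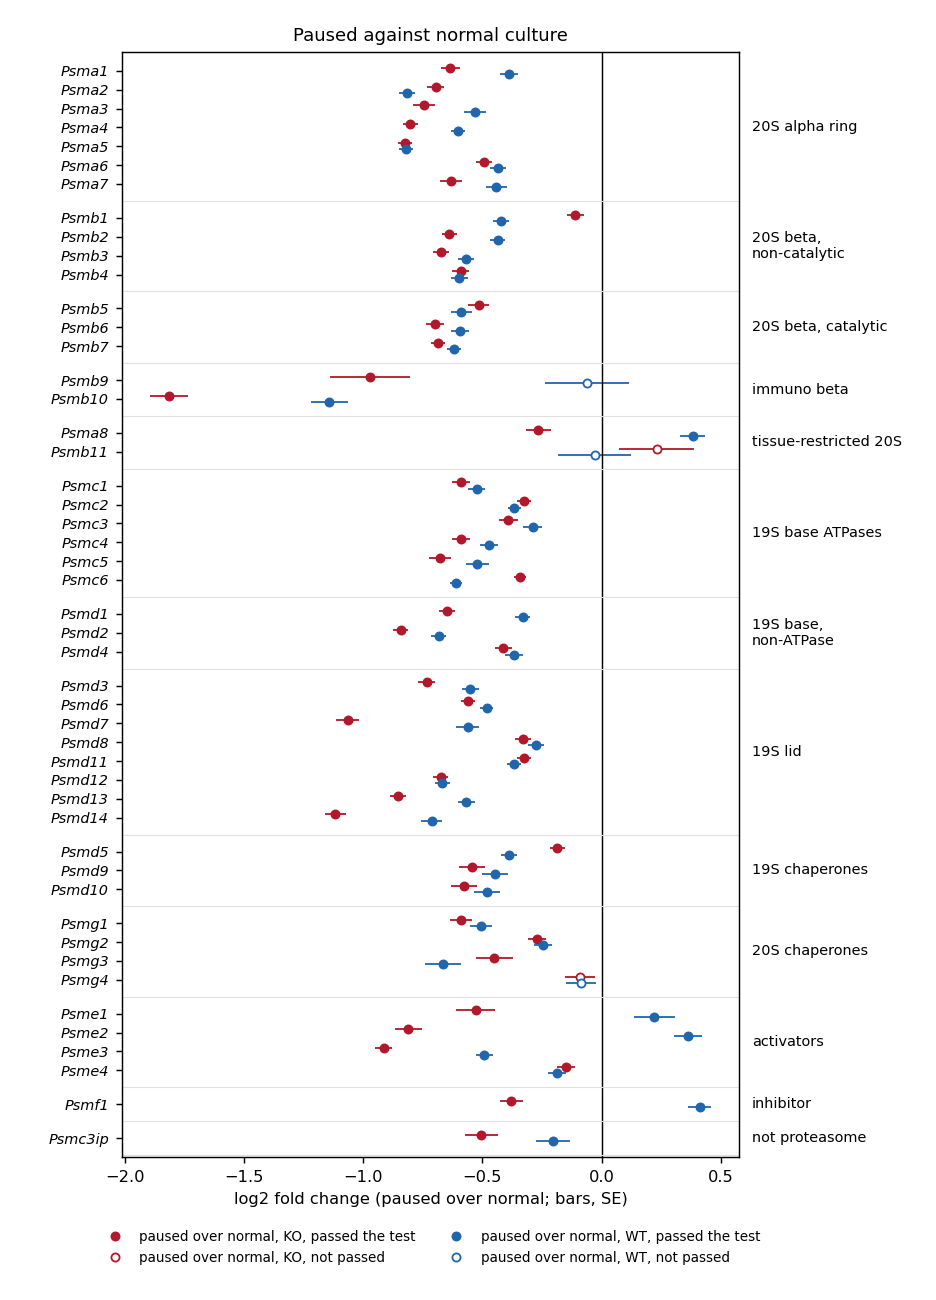
Log2 fold change of paused over normal culture (x axis) for each of the 48 genes tested (y axis, by class), in KO cells (red) and WT cells (blue); bars are SE, filled points passed the test and open points did not. Points of the 20S core and the 19S cap lie left of 0 in both genotypes (Psmb1 in KO cells turns to 0.04 when scaled by library totals), while Psma8, Psme1, Psme2 and Psmf1 lie left of 0 in KO and right of 0 in WT cells.

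All 14 genes of the 20S core were lower in paused cells of both genotypes, although Psmb1 in KO cells turned to 0.04 (adjusted p = 0.35) when scaled by library totals. The medians were −0.66 in KO and −0.58 in WT cells, and single values ran from −0.82 to −0.11 in KO and from −0.82 to −0.39 in WT cells. Psmb5 had 56.8, 55.7, 62.8 and 55.3 CPM in paused KO and 84.3, 80.4, 83.96 and 81.3 CPM in normal KO libraries. Psmb5 had 34.1, 31.5, 35.1 and 34.4 CPM in paused WT and 50.8, 49.9, 51.4 and 51.02 CPM in normal WT libraries. Psmb5 carries the chymotrypsin-like activity. Its log2 fold change on pausing was −0.52 ± 0.04 (adjusted p = 4.1e-09) in KO and −0.59 ± 0.04 (adjusted p = 1.1e-09) in WT cells, and the paused and the normal libraries did not overlap in either genotype. Psmb6 had 139, 134, 144 and 134 CPM in paused KO and 229, 216, 224 and 224 CPM in normal KO libraries. Psmb6 had 174, 158, 164 and 159 CPM in paused WT and 239.5, 242, 248 and 260.0 CPM in normal WT libraries. Its values fell by 0.70 ± 0.04 in KO and by 0.60 ± 0.04 in WT cells on the log2 scale (adjusted p = 1.4e-11 and 1.5e-10). Psmb7 had 163, 155, 163 and 155 CPM in paused KO and 262, 250.1, 257 and 254 CPM in normal KO libraries. Psmb7 had 185, 179, 178 and 181 CPM in paused WT and 269, 280.1, 276 and 284 CPM in normal WT libraries. The log2 fold changes of Psmb7 were −0.69 ± 0.03 (adjusted p = 9.6e-13) in KO and −0.62 ± 0.03 (adjusted p = 5.1e-12) in WT cells. In Psmb6 and Psmb7 too, all paused libraries lay below all normal libraries of their genotype.

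Among the alpha subunits Psma5 fell most in both genotypes. Psma5 had 112, 108, 113 and 111 CPM in paused KO and 201, 196, 195 and 194 CPM in normal KO libraries. Psma5 had 118, 112, 112 and 113 CPM in paused WT and 205, 203, 197 and 198 CPM in normal WT libraries. The log2 fold changes were −0.82 ± 0.03 (adjusted p = 7.8e-14) in KO and −0.82 ± 0.03 (adjusted p = 1.7e-13) in WT cells. Psma2 had 123, 116, 127 and 121 CPM in paused KO and 204, 191, 197 and 198 CPM in normal KO libraries. Psma2 had 146, 135, 135 and 139 CPM in paused WT and 251, 248, 237 and 243 CPM in normal WT libraries. Psma2, close behind it in WT cells, differed by −0.70 ± 0.04 (adjusted p = 6.5e-12) in KO and by −0.82 ± 0.04 (adjusted p = 1.4e-12) in WT cells, and was lower in KO than in WT cells in both cultures. The smallest fall in the core was that of the structural beta subunit Psmb1 in KO cells. Psmb1 had 170.4, 180.2, 178 and 184 CPM in paused KO and 195, 194, 189.8 and 189.7 CPM in normal KO libraries. Psmb1 had 158, 152, 149 and 148 CPM in paused WT and 209, 211, 194 and 199 CPM in normal WT libraries. Its log2 fold change was −0.11 ± 0.03 (adjusted p = 0.0091) in KO and −0.42 ± 0.03 (adjusted p = 5.3e-09) in WT cells, and the KO value missed the threshold with protein-coding transcripts only (−0.07, adjusted p = 0.077). The 3 pseudogenes of Psma3, led by Gm13835, had 13.0% to 26.3% of its counts, and the 2 pseudogenes of Psmb5, led by Gm3375, had 16.5% to 22.2% of its counts. Adding these counts to their gene gave Psma3 −0.70 in KO and −0.46 in WT cells and Psmb5 −0.54 and −0.61, and left the side of the threshold of every one of 184 results per gene as it was.

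All 17 genes of the 19S cap were lower in paused cells of both genotypes, with medians of −0.59 in KO and −0.52 in WT cells. For Psmc6 in KO cells (−0.34) this fall in counts was not shared by all its transcripts. The coding Psmc6-201 had means of 92.3 TPM in normal and 76.9 TPM in paused KO cells. The shorter Psmc6-203, a retained intron, had 13.3 and 22.0 TPM, and Psmc6-208, of the nonsense-mediated decay type, 11.3 and 18.0 TPM. In TPM, which corrects for transcript length and carries no TMM scaling, Psmc6 over all its transcripts was not lower in paused than in normal KO cells. Its fall in KO cells is therefore described for counts only. The largest falls in KO cells were those of Psmd14, the deubiquitinase of the lid, and Psmd7, the subunit that pairs with it. Psmd14 had 59.3, 58.03, 58.8 and 54.6 CPM in paused KO and 122, 124, 129 and 125 CPM in normal KO libraries. Psmd14 had 90.3, 87.9, 88.9 and 89 CPM in paused WT and 137, 135, 154 and 158 CPM in normal WT libraries. Psmd14 (ENSMUSG00000026914.15, chromosome 2, 61711694 to 61800376, plus strand) changed by −1.12 ± 0.04 (adjusted p = 3e-13) in KO and by −0.71 ± 0.04 (adjusted p = 1.1e-10) in WT cells. Psmd7 had 131, 120.0, 126 and 119 CPM in paused KO and 266, 252, 258 and 264 CPM in normal KO libraries. Psmd7 had 151, 142, 151 and 148 CPM in paused WT and 198, 212, 229 and 236 CPM in normal WT libraries. Psmd7 changed by −1.07 ± 0.05 (adjusted p = 1.2e-12) in KO and by −0.56 ± 0.05 (adjusted p = 6.4e-09) in WT cells. For both genes the paused KO libraries were the lowest of the 16 and did not overlap with any other group. Psmd2, one of the scaffolds of the base, changed by −0.84 ± 0.03 (adjusted p = 1.7e-13) and −0.68 ± 0.03 (adjusted p = 3.1e-12) in KO and in WT cells, and the lid subunit Psmd13 by −0.85 ± 0.03 (adjusted p = 3.8e-13) and −0.57 ± 0.03 (adjusted p = 8.8e-11). Among the smallest falls were those of the ATPase Psmc2 (−0.33 in KO and −0.37 in WT cells), the lid subunits Psmd11 (−0.33 and −0.37) and Psmd8 (−0.33 and −0.27), and the ATPase Psmc3 (−0.39 and −0.29). The ubiquitin receptor Psmd4 changed by −0.41 in KO and −0.37 in WT cells. The 6 ATPases of the base had medians of −0.49 and −0.50 in KO and WT cells, and the 8 lid subunits −0.71 and −0.56.

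The immunoproteasome subunits were at low levels. Psmb8, which replaces Psmb5, was not tested. Psmb8 had 0, 0.0727, 0.0379 and 0.0406 CPM in paused KO and 0.0219, 0.0771, 0.0199 and 0.0751 CPM in normal KO libraries. Psmb8 had 0.0897, 0.0677, 0.187 and 0.283 CPM in paused WT and 0.105, 0.108, 0.178 and 0.107 CPM in normal WT libraries. All these values are near 0, and the groups overlapped within each genotype. Psmb8 made up 0.0534% ± 0.04397 of the summed TPM of Psmb8 and Psmb5 in paused KO cells, 0.0348% ± 0.0289 in normal KO cells, 0.271% ± 0.154 in paused WT cells and 0.153% ± 0.0501 in normal WT cells. Psmb9 had 1.22, 1.15, 0.806 and 0.974 CPM in paused KO and 2.59, 2.03, 1.69 and 1.83 CPM in normal KO libraries. Psmb9 had 0.897, 1.02, 0.913 and 1.03 CPM in paused WT and 1.29, 1.08, 0.859 and 0.781 CPM in normal WT libraries. Psmb9 (ENSMUSG00000096727.3, chromosome 17, 34181987 to 34187764, minus strand) replaces Psmb6, and its normal KO libraries were the highest. Its log2 fold change on pausing was −0.97 ± 0.17 (adjusted p = 5.3e-05) in KO cells, and −0.06 ± 0.18 (adjusted p = 0.79) in WT cells, where the groups overlapped. Psmb9 overlaps Tap1 on the opposite strand by 212 exon bases, and the strand of the libraries is not given in the sources used here. Of 10 markers of leukocytes, cells that carry the immunoproteasome without stimulation, 6 had a mean under 1 CPM in every group, and none was at 0 in every library. Their sum ran from 136 to 149 CPM in paused KO and 114 to 133 CPM in normal KO libraries, 153 to 174 CPM in paused WT and 94.5 to 107 CPM in normal WT libraries, and its part in these results was not tested.

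Psmb10, which replaces Psmb7, had the largest fall of all 48 genes in both genotypes. Psmb10 had 9.69, 7.53, 9.33 and 7.5 CPM in paused KO and 32.5, 28.7, 28.5 and 30.1 CPM in normal KO libraries. Psmb10 had 10.1, 9.06, 10.9 and 9.74 CPM in paused WT and 21.5, 22.7, 22.01 and 21.7 CPM in normal WT libraries. Its log2 fold change (ENSMUSG00000031897.9, chromosome 8, 105935735 to 105938444, minus strand) was −1.82 ± 0.08 (adjusted p = 1e-12) in KO and −1.14 ± 0.08 (adjusted p = 4.9e-10) in WT cells, without overlap between paused and normal libraries. Psmb10 made up 10.7% ± 1.03 of the summed TPM of Psmb10 and Psmb7 in paused KO, 20.6% ± 0.851 in normal KO, 10.9% ± 0.453 in paused WT and 15.3% ± 0.30 in normal WT cells. Most of this RNA was assigned to transcripts that are not annotated as coding. The protein-coding transcript held 4.04% of the TPM of Psmb10 over all libraries, the lowest share among the 48 genes with a mean of at least 1 TPM, whose median was 96.5%. It had 1.61, 1.61, 1.36 and 0.957 TPM in paused KO and 3.42, 3.58, 4.38 and 4.37 TPM in normal KO libraries, 1.396, 1.61, 3.16 and 2.08 TPM in paused WT and 1.48, 1.46, 1.56 and 1.87 TPM in normal WT libraries. In KO cells the paused libraries lay below the normal ones, and in WT cells the groups overlapped. Counted over protein-coding transcripts only, Psmb10 changed by −1.66 (adjusted p = 1.7e-06) in KO cells and by 0.11 (adjusted p = 0.66) in WT cells. The other transcripts had 33.7, 26.1, 31 and 26.1 TPM in paused KO and 94.1, 84.5, 88.3 and 88.5 TPM in normal KO libraries, 34.7, 31.1, 31.5 and 31.1 TPM in paused WT and 65.3, 63.3, 60.4 and 63.1 TPM in normal WT libraries. Of the coding TPM of Psmb10 and Psmb7, Psmb10 held 0.388% to 0.627% in paused KO and 0.966% to 1.203% in normal KO libraries, 0.489% to 1.15% in paused WT and 0.402% to 0.498% in normal WT libraries.

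The shares of single transcripts differed between paused and normal libraries in a few other genes. Of 79 transcripts described (at least 1 TPM and at least 5% of their gene), 5 held a share that was lower by at least 5 percentage points in paused cells of both genotypes without overlap, and 2 a share that was higher. The same shares over all transcripts of the series were not counted, so these numbers do not show that transcripts of proteasome genes are unusual. These are descriptions, with no test, and kallisto's split of reads between transcripts that share exons carries its own error. The retained-intron transcript Psmb10-207 held 48.96, 48.1, 52.9 and 52.7% in paused KO and 58.5, 57.8, 54.8 and 58.3% in normal KO libraries, 46.9, 43.5, 42.97 and 47.4% in paused WT and 60.4, 59.3, 57.99 and 52.9% in normal WT libraries. Psmc6-201, a coding transcript of the ATPase Psmc6, held 56.7, 55.7, 55.6 and 54.97% in paused KO and 69.5, 67.9, 73.4 and 68.4% in normal KO libraries, 63.9, 63.9, 63.4 and 62.3% in paused WT and 64.7, 72.3, 74.4 and 72.7% in normal WT libraries. Psmd13-201, of the lid subunit Psmd13, held 54.7, 44.5, 44.05 and 47.3% in paused KO and 65.6, 60.2, 59.9 and 58.9% in normal KO libraries, 49.9, 52.6, 51.4 and 52.8% in paused WT and 53.6, 58.4, 62.9 and 60.3% in normal WT libraries. In these 3 transcripts each paused library lay below each normal library of its genotype. Psmd4-201 held 29.0% to 30.6% in paused KO and 34.3% to 37.2% in normal KO libraries, 32.4% to 33.5% in paused WT and 36.4% to 40.1% in normal WT libraries. Psmc3ip-202, a retained intron, held a mean of 37.1% in paused KO and 52.1% in normal KO cells, 38.6% in paused WT and 46.1% in normal WT cells, and the coding Psmc3ip-201 held 56.8% in paused KO, 41.0% in normal KO, 56.0% in paused WT and 46.7% in normal WT cells. Over all transcripts Psmc3ip changed by −0.51 ± 0.07 (adjusted p = 4e-06) in KO and by −0.20 ± 0.07 (adjusted p = 0.017) in WT cells, and with protein-coding transcripts only it no longer passed the test (−0.07, adjusted p = 0.53, in KO and −0.00, adjusted p = 0.99, in WT cells). Genes on the opposite strand overlap the exons of Psmd9 (the lincRNA Gm26745, 1849 bases), Psmc3ip (Mlx, 385 bases), Psmd13 (Sirt3, 329 bases), Psmb8 (Gm20496, 259 bases), Psmb7 (Nek6, 253 bases), Psmd1 (Htr2b, 252 bases), Psmc3 (Slc39a13, 147 bases) and Psma4 (AY074887, 114 bases), and by 60 bases or fewer those of Psma5, Psmd3 and Psme1, and without a stated strand their reads cannot be told apart there.

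**Figure D3:**
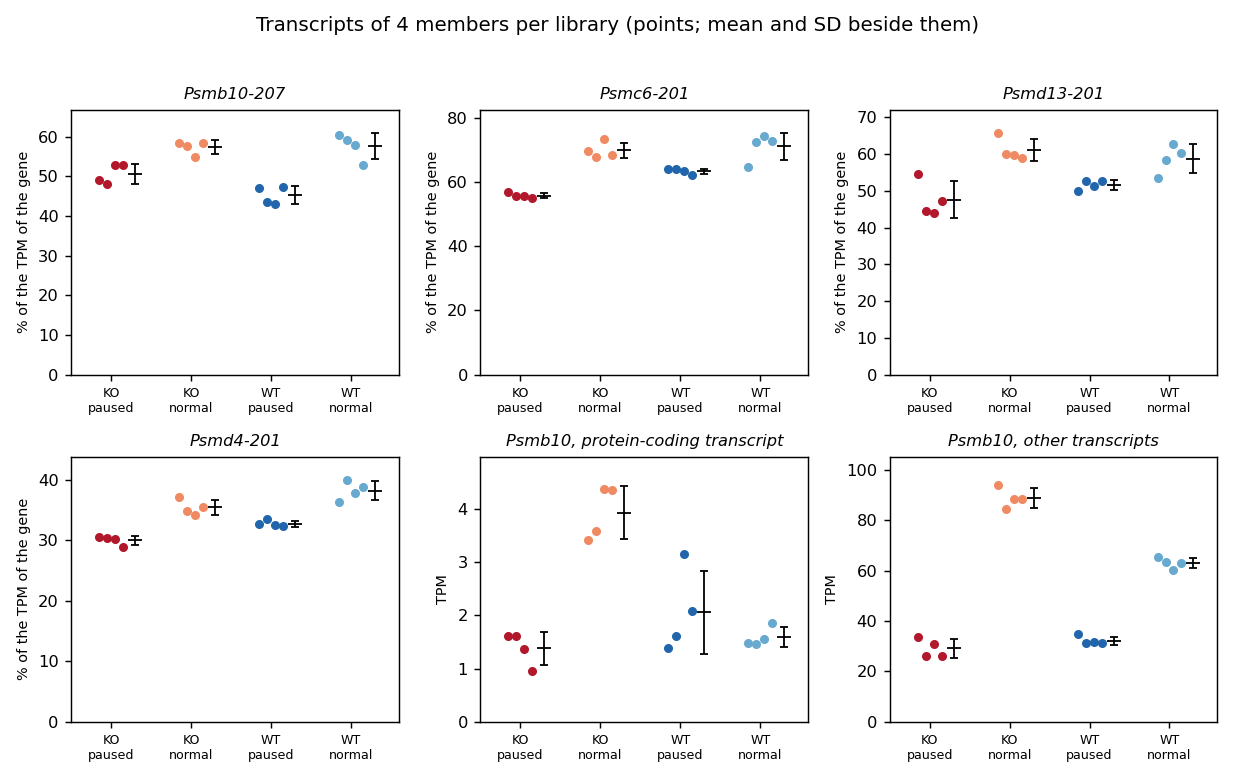
Share of the TPM of its gene (%) held by Psmb10-207, Psmc6-201, Psmd13-201 and Psmd4-201, and TPM of the protein-coding and of the other transcripts of Psmb10, in each library (points) of paused KO, normal KO, paused WT and normal WT cells, with mean and SD beside them; y axes are linear from 0. The coding transcript of Psmb10 separates paused from normal libraries in KO cells and not in WT cells, whereas the other transcripts of the gene separate them in both.

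Among the activators Psme1 and Psme2 differed in the direction of pausing between the genotypes, and Psme3 and Psme4 were lower in paused cells of both (Psme4 not when scaled by library totals). Psme1 and Psme2 encode the subunits of PA28 alpha beta, a ring that opens the core gate and is inducible by interferon. Psme1 had 41.8, 42.6, 43.03 and 42.2 CPM in paused KO and 62.04, 61.6, 63.1 and 57.96 CPM in normal KO libraries. Psme1 had 18.8, 18.3, 21.9 and 21.1 CPM in paused WT and 13.8, 16.4, 18.5 and 20.1 CPM in normal WT libraries. On pausing Psme1 (ENSMUSG00000022216.17, chromosome 14, 55578123 to 55581529, plus strand) changed by −0.53 ± 0.08 (adjusted p = 1.8e-05) in KO and by 0.22 ± 0.08 (adjusted p = 0.031) in WT cells. The WT groups overlapped, and the WT call was lost when paused WT replicate 3 or 4 or normal WT replicate 1 or 2 was left out (0.18, 0.20, 0.13 and 0.18) and with DESeq2 (0.20, adjusted p = 0.056). Psme2 had 20.9, 21.4, 21.2 and 20.8 CPM in paused KO and 37.6, 36.4, 37.8 and 36.1 CPM in normal KO libraries. Psme2 had 11.5, 10.8, 12.8 and 12.2 CPM in paused WT and 8.57, 8.62, 9.42 and 10.2 CPM in normal WT libraries. Psme2 (ENSMUSG00000079197.10, chromosome 14, 55587441 to 55591113, minus strand) changed by −0.81 ± 0.06 (adjusted p = 4e-10) in KO and by 0.36 ± 0.06 (adjusted p = 3e-05) in WT cells, with no overlap in either genotype. Its normal KO libraries were the highest and its normal WT libraries the lowest of the 16. Psme3, which forms the nuclear PA28 gamma ring, fell in both. Psme3 had 169.8, 162, 176 and 166 CPM in paused KO and 316, 313, 319 and 323 CPM in normal KO libraries. Psme3 had 206, 199, 210.5 and 207 CPM in paused WT and 271, 286, 297 and 304 CPM in normal WT libraries. The changes of Psme3 were −0.92 ± 0.04 (adjusted p = 3e-13) in KO and −0.49 ± 0.04 (adjusted p = 1.1e-09) in WT cells. Psme4 had 278, 299.6, 283 and 294 CPM in paused KO and 316, 327, 319 and 317 CPM in normal KO libraries. Psme4 had 236, 242, 252 and 264 CPM in paused WT and 294, 272, 278 and 286 CPM in normal WT libraries. Psme4, the single-chain activator PA200, changed by −0.15 ± 0.04 (adjusted p = 0.0018) in KO and by −0.19 ± 0.04 (adjusted p = 0.00027) in WT cells, small values that were 0.0032 (adjusted p = 0.95) in KO cells and −0.04 (adjusted p = 0.44) in WT cells when scaled by library totals. Psme2b had at most 0.184 CPM in any library and was not tested.

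Psmf1 (ENSMUSG00000032869.15, chromosome 2, 151715812 to 151744186, minus strand) encodes PI31, which inhibits the isolated core. Psmf1 had 33.9, 33.1, 33.2 and 31.5 CPM in paused KO and 43.5, 40.9, 44.3 and 42.7 CPM in normal KO libraries. Psmf1 had 43.1, 39.4, 41.1 and 41.8 CPM in paused WT and 29.05, 29.4, 32.7 and 33.1 CPM in normal WT libraries. It changed by −0.38 ± 0.05 (adjusted p = 1.2e-06) in KO and by 0.41 ± 0.05 (adjusted p = 5e-07) in WT cells. The paused KO libraries lay below the normal KO libraries, and the paused WT above the normal WT libraries, without overlap.

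**Figure D4:**
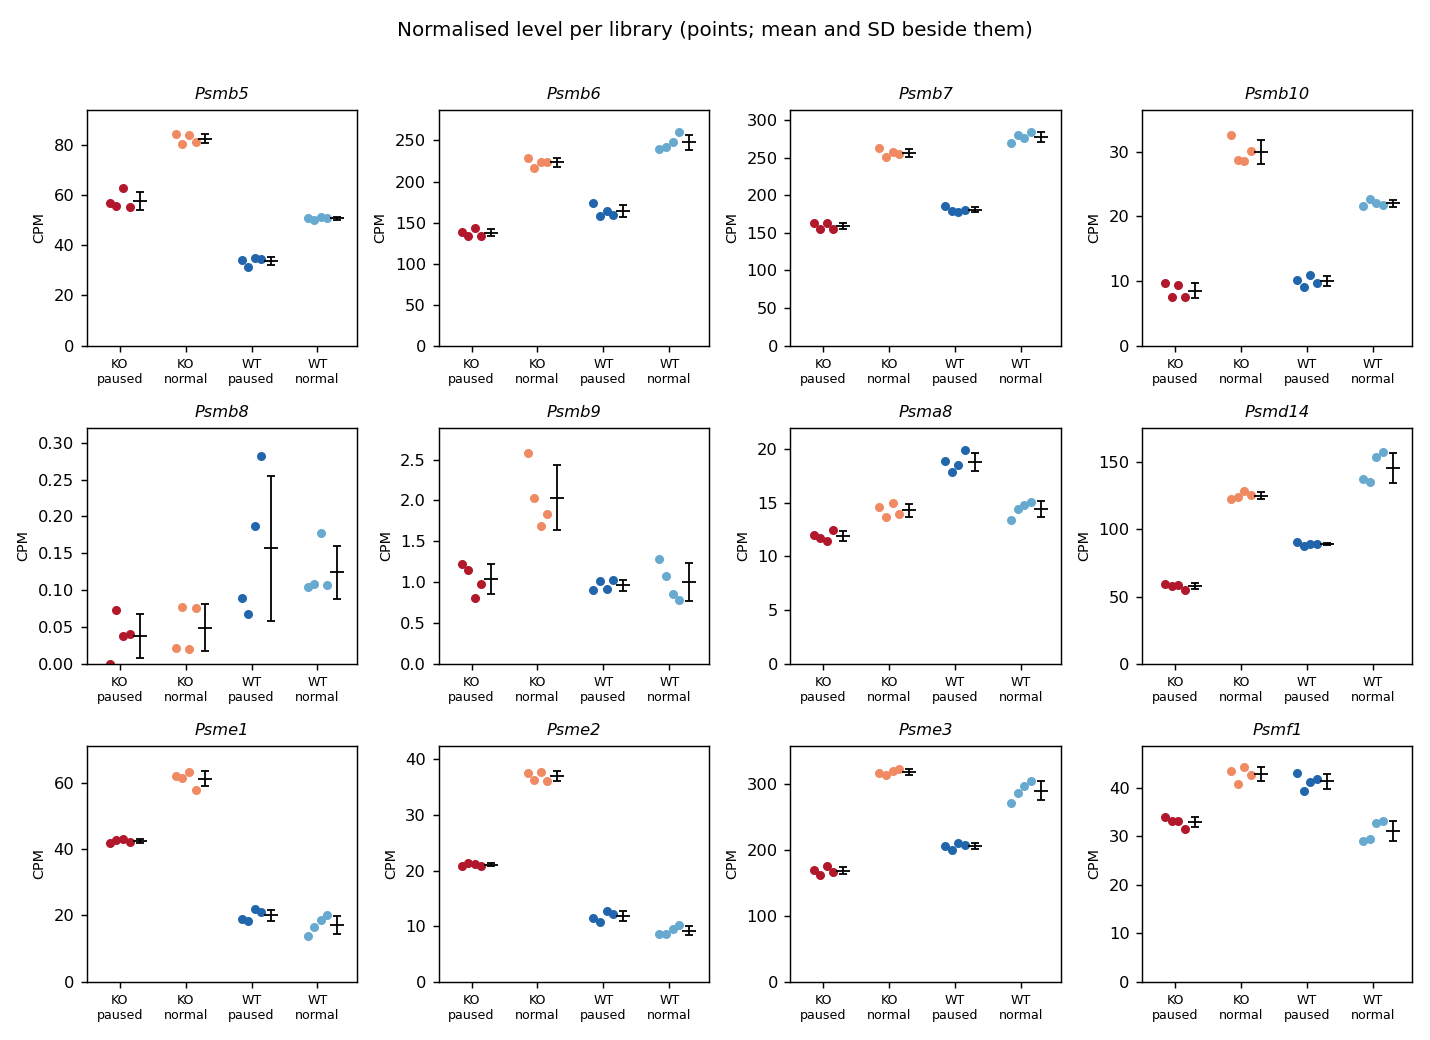
CPM per library (points; y axes linear from 0, each gene with its own) of the constitutive and immunoproteasome catalytic subunits, Psma8, Psmd14, the PA28 genes and Psmf1 in paused KO, normal KO, paused WT and normal WT cells, with mean and SD beside the points. Psme1 and Psme2 are higher in all KO than in all WT libraries, and Psma8 and Psmf1 are lower in paused than in normal KO libraries but higher in paused than in normal WT libraries.

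Of the 4 chaperones that assemble the alpha ring, 3 were lower in paused cells of both genotypes. Psmg1 had 56.9, 51.9, 58.97 and 54.4 CPM in paused KO and 84.7, 78.6, 85.3 and 86.4 CPM in normal KO libraries. Psmg1 had 63.6, 58.4, 64.1 and 60.2 CPM in paused WT and 82.6, 87.4, 88.7 and 90.9 CPM in normal WT libraries. Psmg1 and its partner Psmg2 start the ring, and Psmg1 changed by −0.59 ± 0.05 (adjusted p = 1.8e-09) in KO and by −0.50 ± 0.05 (adjusted p = 2e-08) in WT cells. Psmg2 had 36.7, 34.9, 36.96 and 37.2 CPM in paused KO and 43.9, 43.2, 42.8 and 45.8 CPM in normal KO libraries. Psmg2 had 46.4, 43.1, 46.3 and 44.5 CPM in paused WT and 53.8, 53.4, 52.5 and 54.2 CPM in normal WT libraries. The change of Psmg2 was −0.27 in KO and −0.25 in WT cells, and neither pair of groups overlapped. Psmg3 had 10.3, 9.45, 11.5 and 9.57 CPM in paused KO and 14.1, 12.97, 13.98 and 14.7 CPM in normal KO libraries. Psmg3 had 13.1, 11.6, 14.4 and 12.9 CPM in paused WT and 18.9, 19.7, 21.9 and 22.1 CPM in normal WT libraries. Psmg3, which acts with Psmg4, was highest in normal WT cells and changed by −0.45 ± 0.08 (adjusted p = 4.1e-05) in KO and by −0.67 ± 0.08 (adjusted p = 3.6e-07) in WT cells. Psmg4 had 14.04, 14.5, 16.2 and 14.6 CPM in paused KO and 16.9, 15.3, 15.9 and 15.1 CPM in normal KO libraries. Psmg4 had 18.2, 16.5, 16.9 and 15.7 CPM in paused WT and 17.8, 16.1, 19.01 and 18.6 CPM in normal WT libraries. The differences of Psmg4 did not pass the test (−0.09, adjusted p = 0.22, and −0.09, adjusted p = 0.25). The 3 chaperones of the base, which hold its ATPases apart until assembly, were lower in both genotypes. Psmd9 had 22.95, 22.8, 23.8 and 22.9 CPM in paused KO and 35.2, 31.3, 33.98 and 34.2 CPM in normal KO libraries. Psmd9 had 22.2, 20.8, 22.9 and 22.7 CPM in paused WT and 27.3, 29.5, 31.2 and 32.9 CPM in normal WT libraries. Psmd9 changed by −0.54 in KO and by −0.45 in WT cells. Psmd10 had 6.22, 6.05, 6.09 and 6.59 CPM in paused KO and 9.84, 9.21, 9.25 and 8.91 CPM in normal KO libraries. Psmd10 had 6.76, 6.93, 6.76 and 7.098 CPM in paused WT and 9.27, 9.47, 9.93 and 9.79 CPM in normal WT libraries. Psmd10, also known as gankyrin, changed by −0.58 in KO and by −0.48 in WT cells, and paused and normal libraries of both chaperones stood apart. Psmd5 had 90.7, 91.6, 90.7 and 89.2 CPM in paused KO and 105, 103, 102 and 102 CPM in normal KO libraries. Psmd5 had 86.98, 83.9, 81.98 and 83.8 CPM in paused WT and 117, 111, 106 and 108 CPM in normal WT libraries. Psmd5 changed by −0.19 ± 0.03 (adjusted p = 5.8e-05) in KO and by −0.39 ± 0.03 (adjusted p = 6.2e-09) in WT cells, and its KO value was −0.03 (adjusted p = 0.43) when scaled by library totals and −0.0054 (adjusted p = 0.95) with counts corrected for transcript length.

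Of the tissue-restricted core genes, Psma8 is the alpha subunit of spermatogenic cells and Psmb11 the beta subunit of thymic epithelium. Psma8 had 11.97, 11.7, 11.4 and 12.5 CPM in paused KO and 14.6, 13.7, 14.98 and 13.9 CPM in normal KO libraries. Psma8 had 18.9, 17.9, 18.5 and 19.9 CPM in paused WT and 13.4, 14.5, 14.8 and 15.02 CPM in normal WT libraries. Psma8 (ENSMUSG00000036743.4, chromosome 18, 14706151 to 14762301, plus strand) changed by −0.27 ± 0.05 (adjusted p = 0.00022) in KO and by 0.38 ± 0.05 (adjusted p = 3.9e-06) in WT cells, and the paused WT libraries were the highest and the paused KO libraries the lowest. The KO call was lost when scaled by library totals (−0.11, adjusted p = 0.066). Psmb11 averaged 3.21 ± 0.355 CPM in paused KO and 2.74 ± 0.268 CPM in normal KO cells, 3.57 ± 0.347 in paused WT and 3.64 ± 1.05 in normal WT cells, with overlap between the paused and the normal libraries of each genotype, and did not pass the test of pausing in either genotype (0.23, adjusted p = 0.2, in KO and −0.03, adjusted p = 0.88, in WT cells).

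An interaction term compared pausing in the 2 genotypes, and it equals the log2 fold change in KO minus that in WT cells. Of the 48 genes 19 had a negative and 3 a positive interaction, where 24.5% of all genes tested had a negative and 17.4% a positive one, and the median was −0.10, against −0.03 over all genes. With replicates 1 and 2 alone 20 were negative and 4 positive (median −0.17), and with replicates 3 and 4 alone 15 and 4 (median −0.05). Leaving out normal WT replicate 2 also gave a median of −0.05. The largest negative interactions were those of Psme2, −1.17 ± 0.08 (adjusted p = 7.7e-09), Psmb9, −0.91 ± 0.24 (adjusted p = 0.0058), Psmf1, −0.79 ± 0.07 (adjusted p = 7.9e-08), Psme1, −0.75 ± 0.12 (adjusted p = 7.7e-05), and Psmb10, −0.67 ± 0.11 (adjusted p = 0.0001). Psmb10 differed by −1.77 (adjusted p = 0.00015) with protein-coding transcripts only. Psma8 followed with −0.65 ± 0.07 (adjusted p = 2.2e-06), Psmd7 with −0.50 ± 0.07 (adjusted p = 1e-05), Psme3 with −0.42 ± 0.05 (adjusted p = 4e-06) and Psmd14 with −0.40 ± 0.06 (adjusted p = 5.4e-05). Psme2, Psme1, Psmf1 and Psma8 are those with opposite signs in KO and WT cells. Psmb1, Psmc6 and Psmd5 had a positive interaction, which is a smaller fall in counts in KO cells, of 0.31 ± 0.05 (adjusted p = 6.7e-05), 0.27 ± 0.04 (adjusted p = 1.7e-05) and 0.20 ± 0.05 (adjusted p = 0.0016). Psmc6 had 121, 123, 126 and 123 CPM in paused KO and 156, 158, 155 and 156 CPM in normal KO libraries. Psmc6 had 107, 108, 106 and 110.0 CPM in paused WT and 169, 164, 161 and 165 CPM in normal WT libraries. The paused KO libraries of Psmc6 lay above the paused WT libraries, while its normal KO libraries lay below the normal WT libraries. Within the 20S core 5 of 14 genes had a negative and 1 a positive interaction, none larger than 0.31 in size, and within the 19S cap 6 of 17 and 1. None of the 3 constitutive catalytic subunits passed (0.07, −0.10 and −0.07 for Psmb5, Psmb6 and Psmb7; adjusted p = 0.36, 0.12 and 0.2).

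The genotypes were then compared within each culture. In paused culture 9 of 48 genes were higher and 27 lower in KO than in WT cells, where 30.8% of all genes tested were higher and 34.5% lower. In normal culture 17 were higher and 18 lower, where 34.1% of all genes were higher and 34.1% lower, so these counts lie near the shares over all genes. Replicates 1 and 2 alone gave 8 higher and 24 lower in paused and 16 and 11 in normal culture, and replicates 3 and 4 alone 9 and 23, and 14 and 16. The median log2 fold change, KO over WT, was −0.15 in paused and −0.03 in normal culture. Of the genes called in both cultures 6 were higher and 14 lower in both, 5 were lower in paused and higher in normal culture, and 3 the reverse. How many of all genes were called in both cultures was not counted, so these numbers are not read as particular to the proteasome genes. The 2 comparisons share no library. Among the 8 lid subunits 7 were lower in paused KO than in paused WT cells and 0 higher.

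Psme1, Psme2 and Psmb5 had the largest increases in KO cells in paused culture, and in normal culture only Psmb9 came between them. Psme1 was higher by 1.08 ± 0.08 (adjusted p = 3.5e-09) in paused and by 1.83 ± 0.09 (adjusted p = 3.3e-12) in normal culture, Psme2 by 0.84 ± 0.06 (adjusted p = 4.2e-10) and 2.01 ± 0.06 (adjusted p = 5.4e-15), and Psmb5 by 0.77 ± 0.04 (adjusted p = 2.4e-11) and 0.70 ± 0.04 (adjusted p = 6.1e-11). Every KO library of these 3 genes lay above every WT library of the same culture. All 3 lie on chromosome 14, where many neighbouring genes were also higher in KO cells. Of the 58 other genes tested within 1 Mb of Psme1 and Psme2, 45 were higher in KO cells in paused culture and 43 in normal culture, with median log2 fold changes of 0.96 and 0.94. Of the 48 within 1 Mb of Psmb5 (ENSMUSG00000022193.7, chromosome 14, 54614119 to 54618022, minus strand), 33 were higher in each culture (medians 0.79 and 0.83). Lower in KO cells were 2 of the 58 in paused and 6 in normal culture, and 4 and 7 of the 48. The windows around Psmb5 and around Psme1 and Psme2 overlap, so the 48 and the 58 genes are not separate sets. Psmb11, from the same stretch as Psmb5, differed by −0.15 ± 0.15 (adjusted p = 0.41) in paused and by −0.41 ± 0.16 (adjusted p = 0.027) in normal culture. The call in normal culture was lost when normal KO replicate 1, 2 or 3 or normal WT replicate 1 or 2 was left out. Without normal WT replicate 1, which had 4.96 CPM, it was −0.22 (adjusted p = 0.16), and with replicates 3 and 4 only 0.02 (adjusted p = 0.92). Psmc6 and Psmd6 lie elsewhere on chromosome 14, where 6 of 15 and 3 of 14 neighbours were higher in paused and 6 of 15 and 2 of 14 in normal culture. Of these neighbours 2 of 15 and 2 of 14 were lower in paused, and 3 of 15 and 7 of 14 in normal culture. Of all genes tested 30.8% were higher and 34.5% lower in KO cells in paused, and 34.1% and 34.1% in normal culture. The part of this stretch of the chromosome in the results for Psme1, Psme2 and Psmb5 was not tested.

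Other genes were higher in KO cells in normal culture. Psmb9 was higher by 1.02 ± 0.17 (adjusted p = 3.5e-05) and Psmb10 by 0.45 ± 0.08 (adjusted p = 4.3e-05), neither of them from chromosome 14. In paused culture Psmb9 differed by 0.11 ± 0.18 (adjusted p = 0.62) and Psmb10 by −0.23 ± 0.08 (adjusted p = 0.019). The Psmb10 libraries overlapped, and that call was lost when paused KO replicate 2 or 4 or paused WT replicate 3 was left out (−0.16, −0.16 and −0.18). Psmd1 had 399, 369, 393 and 368 CPM in paused KO and 614, 598, 594 and 594 CPM in normal KO libraries. Psmd1 had 346, 336, 335 and 332 CPM in paused WT and 432, 437, 415 and 414 CPM in normal WT libraries. Psmd1, a scaffold of the base, was higher by 0.18 ± 0.03 (adjusted p = 9.8e-05) in paused and by 0.50 ± 0.03 (adjusted p = 1.8e-10) in normal culture, and its normal KO libraries were the highest. Psmf1 changed sign, with −0.33 ± 0.05 (adjusted p = 7.5e-06) in paused and 0.46 ± 0.05 (adjusted p = 9e-08) in normal culture, and so did Psmd7, with −0.25 ± 0.05 (adjusted p = 0.00011) and 0.25 ± 0.05 (adjusted p = 0.00011).

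The genes most lowered in KO cells in paused culture were Psma8, −0.66 ± 0.05 (adjusted p = 3e-09), Psmd14, −0.63 ± 0.04 (adjusted p = 6.1e-10), and Psmc3ip, −0.45 ± 0.07 (adjusted p = 1.8e-05). Psmc3ip had 13.9, 13.6, 16.3 and 13.99 CPM in paused KO and 21.7, 20.03, 20.9 and 19.4 CPM in normal KO libraries. Psmc3ip had 21.1, 20.2, 19.8 and 17.8 CPM in paused WT and 20.6, 21.9, 24.5 and 24.1 CPM in normal WT libraries. In normal culture Psmg3, at −0.57 ± 0.08 (adjusted p = 2.2e-06), was followed by the weakly expressed Psmb11, given above, and by Psmd11, at −0.31 ± 0.03 (adjusted p = 4e-08), and Psma2, at −0.31 ± 0.04 (adjusted p = 3.3e-07). Psmd11 had 146, 143, 149 and 141 CPM in paused KO and 183, 183, 179.8 and 179 CPM in normal KO libraries. Psmd11 had 169, 173, 175 and 179.9 CPM in paused WT and 227, 228, 216 and 227 CPM in normal WT libraries. The KO libraries of Psmd11 lay below the WT libraries in each culture. Of 10 endoderm markers, of a cell type that ESC cultures can hold, 10 were lower in KO than in WT cells in paused culture, and 9 lower and 1, Sox7, higher in normal culture, with sums of 156 to 172 CPM in paused KO and 185 to 187 CPM in normal KO libraries, 230 to 307 CPM in paused WT and 256 to 349 CPM in normal WT libraries. Of 10 markers of fibroblasts, which are used as feeder cells, 6 had a mean under 1 CPM in every group and 5 were tested, of which 2 were higher and 2 lower in KO than in WT cells in paused culture and 2 higher and 3 lower in normal culture. Their sum was 28.6 to 30.8 CPM in paused KO and 39.9 to 45.9 CPM in normal KO libraries, 16.7 to 20.5 CPM in paused WT and 20.5 to 22.3 CPM in normal WT libraries. Of all genes tested 30.8% were higher and 34.5% lower in KO cells in paused, and 34.1% and 34.1% in normal culture. The part of both marker lists in the differences between genotypes and between cultures was not tested.

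**Figure D5:**
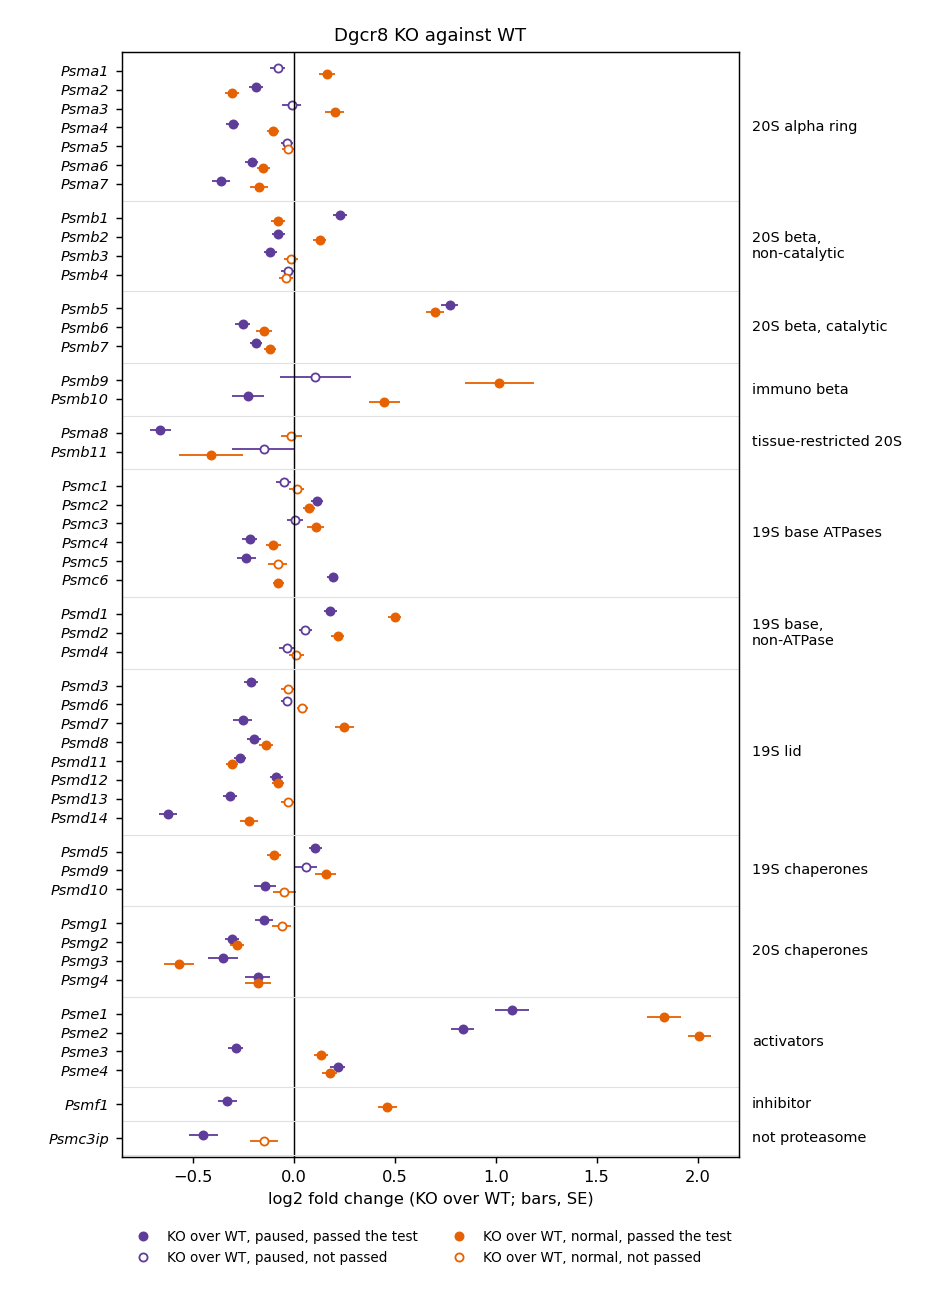
Log2 fold change of KO over WT (x axis) for each of the 48 genes tested (y axis, by class), in paused culture (purple) and normal culture (orange); bars are SE, filled points passed the test and open points did not. Psme1, Psme2 and Psmb5 stand to the right in both cultures, Psmb10, Psmd7 and Psmf1 lie right of 0 in normal and left of 0 in paused culture, and most lid subunits lie left of 0 in paused culture.

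Proteasome genes with other symbols were read beside these. Of 9 symbols listed 6 were tested, and 6 were lower on pausing in KO and 5 in WT cells, where 32.8% and 27.5% of all genes tested were lower. Pomp, the maturation factor of the core, changed by −0.97 ± 0.04 (adjusted p = 2.2e-13) in KO and by −0.55 ± 0.04 (adjusted p = 3.8e-10) in WT cells, with an interaction of −0.42 ± 0.05 (adjusted p = 5.6e-06). Uchl5, a deubiquitinase of the cap, changed by −1.01 ± 0.03 (adjusted p = 3.5e-14) and −1.05 ± 0.03 (adjusted p = 5e-14), and Usp14, another, by −0.55 ± 0.03 (adjusted p = 7.5e-11) and −0.61 ± 0.03 (adjusted p = 2.9e-11) in KO and WT cells. The ubiquitin receptor Adrm1 changed by −0.27 and −0.26 and the small lid subunit Sem1 by −0.40 and −0.40. Ecpas, which ties the cap to the core, changed by −0.38 ± 0.08 (adjusted p = 0.00023) in KO cells and by 0.03 ± 0.08 (adjusted p = 0.8) in WT cells.

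Genes of the NRF1 pathway, which raises subunit genes when the proteasome is impaired, moved in both directions. Of 6 genes 3 were higher and 3 lower on pausing in KO, and 2 higher and 3 lower in WT cells. Of all genes tested 34.4% were higher and 32.8% lower in KO, and 33.3% and 27.5% in WT cells. Nfe2l1 itself changed by −0.14 ± 0.04 (adjusted p = 0.0072) in KO and by −0.15 ± 0.04 (adjusted p = 0.0064) in WT cells and was higher in KO than in WT cells by 0.56 ± 0.04 (adjusted p = 2e-09) in paused and 0.55 ± 0.04 (adjusted p = 1.8e-09) in normal culture. Ddi2, the protease that releases it, changed by −0.73 ± 0.03 (adjusted p = 4.5e-13) and −0.32 ± 0.03 (adjusted p = 3.4e-08), Ngly1, which removes its sugars, by 0.82 ± 0.09 (adjusted p = 8.8e-08) and 0.77 ± 0.09 (adjusted p = 4e-07), and the extracting ATPase Vcp by −0.70 ± 0.04 (adjusted p = 9e-11) and −0.24 ± 0.04 (adjusted p = 9.1e-05) in KO and WT cells. Nfe2l2, which encodes NRF2, changed by 0.26 and 0.16. Of 11 shuttle factors and regulators 7 were lower and 2 higher on pausing in KO, and 8 and 3 in WT cells, against the same shares of all genes. Among them Txnl1, a thioredoxin of the cap, was at −0.68 and −0.60 and the shuttle Ubqln1 at −0.60 and −0.67.

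Interferon and antigen presentation genes, the usual company of the immunoproteasome and PA28, moved in both directions on pausing. Of 15 tested of 17 listed, 5 were lower and 3 higher on pausing in KO and 3 and 5 in WT cells. Of all genes tested 32.8% were lower and 34.4% higher in KO, and 27.5% and 33.3% in WT cells. In KO against WT cells 8 were higher and 4 lower in paused, and 9 higher and 1 lower in normal culture. Of all genes tested 30.8% were higher and 34.5% lower in paused, and 34.1% and 34.1% in normal culture. The median log2 fold change of the list was 0.17 in paused and 0.46 in normal culture, against −0.03 over all genes in each. The class I gene H2-D1 was higher by 0.95 ± 0.06 (adjusted p = 1.6e-10) in paused and by 1.49 ± 0.06 (adjusted p = 4.5e-13) in normal culture, and Irf1, which drives the immunoproteasome genes, by 0.18 ± 0.07 (adjusted p = 0.027) and 1.07 ± 0.07 (adjusted p = 1.2e-10). Tap1, the peptide transporter that shares its promoter region with Psmb9, was lower, at −0.61 ± 0.12 (adjusted p = 0.00016) in paused and −0.93 ± 0.11 (adjusted p = 9.1e-07) in normal culture. The interferon-stimulated genes Ifit3 and Isg15 did not pass the filter on low counts.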

How the data were processed

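Poly(A)-selected RNA of 16 libraries, 4 in each of 4 groups, was quantified by the authors with kallisto against GRCm38 transcripts, per the submitters' processing notes; the version and annotation are not given in the sources used here. The deposited files give, per the file headers, estimated counts and TPM for 118489 transcripts, with lengths in bases. The deposited estimated counts were summed per gene with GENCODE M21, which matched 116728 transcripts; the other 1761 held 0.656% to 0.712% of the counts. Sums were rounded to whole numbers. Genes passing edgeR 4.0.16 filterByExpr (minimum count 10) were fitted in 1 model over the 4 groups, with TMM scaling and robust quasi-likelihood F tests in R 4.3.3. Benjamini-Hochberg adjustment ran over the 18944 genes tested (threshold 0.05), and SE is the size of the log2 fold change over the square root of F. The biological coefficient of variation was 0.0852. Library totals of 88377380 to 116646028 make counting error small except for Psmb8, Psme2b, Psmb9 and Psmb11. The deposited TPM were used for levels between genes and for transcript shares.

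The script was tested on simulated data. Alternatives were DESeq2 1.42.0, its size factors, library totals, no filter, length-scaled counts, protein-coding transcripts only, only the groups compared, a replicate block, a term for replicates 1 and 2 against 3 and 4, either pair alone, each library left out and, chosen after seeing the data, pseudogene counts added. Pseudogenes were found with blastn 2.17.0+ (at least 85% identity over 300 bases). Promoters were RefSeq's (GRCm38.p6). Every member may be named; values of each library are given for the catalytic, immunoproteasome, activator, inhibitor and chaperone genes and, per comparison, for the 3 genes with the largest change in each direction among those called with a mean of at least 3 log2 CPM. Other genes given by library were chosen after their values were seen. The members and gene lists were chosen with earlier results of these data known.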

Additional observations from a re-analysis of the deposited data

Results flagged for a closer look

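In 7 of the 192 groups of 4 libraries examined 1 library stood apart by Dixon's criterion, and chance gives about 1 in 20. Psmc1 had 271.6 CPM in normal KO replicate 2, against 284 to 286 CPM in the other normal KO libraries, and 203.6 CPM in paused WT replicate 1, against 189.8 to 191 CPM in the others of its group. Psmc2 had 160.7 CPM in paused KO replicate 3, against 157 to 158 CPM. Psmd4 had 243.5 CPM in normal KO replicate 1, against 229.7 to 232 CPM, and Psmd11 had 216.1 CPM in normal WT replicate 3, against 227 to 228 CPM. Psmd9 had 23.78 CPM in paused KO replicate 3, against 22.8 to 22.9 CPM, and Psmc3ip 16.29 CPM in that library, against 13.6 to 13.99 CPM.

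The effect of pausing differed between the genotypes in 22 genes by edgeR's test of the interaction, given here as the log2 fold change in KO minus that in WT cells. Psme2 had −1.17, Psmb9 −0.91, Psmf1 −0.79, Psme1 −0.75, Psmb10 −0.67 and Psma8 −0.65. Psmd7 had −0.50, Psme3 −0.42, Psmd14 −0.40, Psmd1 −0.32, Psmc3ip −0.30, Psmd13 −0.29 and Psma1 −0.25. Psma3 had −0.21, Psmb2 −0.20, Psma4 −0.20, Psma7 −0.19, Psmd3 −0.18 and Psmd2 −0.16. Psmb1 had 0.31, Psmc6 0.27 and Psmd5 0.20. The call of Psma3 was lost without normal WT replicate 2 and that of Psmd2 without normal WT replicate 3, and those of Psma7 and Psmc3ip were lost in 5 and 3 of the 16 omissions of 1 library.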

How the results depend on the processing

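Of the 184 called results per gene, 182 kept their direction and call with DESeq2, 180 with its size factors, 177 with length-scaled counts, 173 without the filter, 169 with replicates 1 and 2 only, 166 with replicates 3 and 4 only, 184 with the term for these pairs and 184 with pseudogene counts added; of 162 with only the groups compared, 153 did. Library totals kept 176 and reversed 2, Psmb1 (0.041) and Psme4 (0.0032) on pausing in KO cells; they moved the median to −0.44 in KO and −0.33 in WT cells, and called 1 gene higher in KO cells, Psmb11, as did replicates 1 and 2 only (1). Protein-coding transcripts reversed Psmb10 on pausing in WT cells (0.11), and gave medians of −0.061 for the interaction and −0.078 for KO against WT in normal culture. Replicates 3 and 4 only reversed Psmb11 for KO against WT in normal culture (0.019) and gave an interaction median of −0.046; replicates 1 and 2 only gave −0.17, and −0.44 for pausing in WT cells, where only the groups compared gave −0.52. For KO against WT in normal culture 11 genes were lower without the filter and 11 with replicates 1 and 2 only. The cause was not tested. With each library left out, pausing in KO cells gave 0 to 0 higher and 46 to 46 lower genes (median −0.60 to −0.57), pausing in WT cells 3 to 4 and 40 to 42 (−0.49 to −0.45), the interaction 3 to 4 and 16 to 21 (−0.13 to −0.051), KO against WT 9 to 10 and 23 to 28 in paused (−0.15 to −0.12) and 14 to 17 and 15 to 19 in normal culture (−0.05 to −0.02). Correlations of deviations between same-numbered libraries were low (none above 0.0975), although for some libraries the same-numbered library correlated best. A replicate block gave 0 higher and 46 lower genes for pausing in KO cells, 4 and 41 in WT cells, 4 and 20 for the interaction, 9 and 28 for KO against WT in paused and 17 and 18 in normal culture, with 184 of 184 results per gene as before. Depth limits Psmb8, Psme2b, Psmb9 and Psmb11.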
